A study of Homo sapiens with 30 samples.

Results

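Of 9104 ERG peaks called in RWPE1-ERG/mAKT cells on chromosomes 1 to 22 and X, 480 had an ERK2 peak of RWPE1-ERG cells that overlapped them or lay within 1000 bp, edge to edge. These 480 regions were chosen by the positions of the peaks in both ChIP-seq lists, so their nearness to ERK2 and their enrichment in either list are descriptions and not results. RWPE1 is an immortalised line of human prostate epithelial cells. RWPE1-ERG cells carry a retroviral FLAG-tagged ERG, RWPE1-mAKT cells carry a myristoylated and thus constitutively active AKT, RWPE1-ERG/mAKT cells carry both, RWPE1-ERG S96E cells carry an ERG with a glutamate in place of the serine that ERK phosphorylates, and RWPE1-vector cells carry the empty vector. All of these RWPE1 lines are selected populations of 1 parental line grown with EGF. An ERG list of VCaP, a prostate cancer line with an endogenous ERG fusion, was also used. The authors treated VCaP cells for ChIP with DMSO or a PI3K inhibitor for a week, and the list without inhibitor was taken. Each ChIP-seq or ATAC-seq list came from 1 library, without a replicate, and ERG and ERK2 were measured in different lines.

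ERG is a transcription factor of the ETS family, which recognises the core letters GGAA in DNA and is normally expressed in endothelial cells. A gene fusion places it under an androgen-responsive promoter in many prostate tumours. ERK2 is the kinase at the end of the Ras/MAP kinase pathway, phosphorylates ETS proteins and AP-1 subunits, and has been detected on chromatin. AP-1 is a dimer of FOS and JUN proteins that recognises the letters TGACTCA and is itself a target of this pathway.

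The regions printed first are 9 of the 480, shown because the comparisons of open chromatin, letters and genes refer back to them. IL4R, NTSR1 and LINC01503 had the highest ERG enrichment of the 480. MPRIP, THSD4 and ELL2 passed a q-value of 0.01 in both the ERG and the ERK2 list. PHACTR3, TOX2 and S100A11 held both the AP-1 letters and the 8-letter ETS sequence that is described further on. Each line gives the plus strand of hg19 (GRCh37), from 100 bases before to 100 bases after the ERG summit. Capitals mark TGACTCA or TGAGTCA (AP-1) and an ETS core, which is AGGAAG or CGGAAG or the same with A as the last letter, on either strand.
IL4R intron, chr16:27326962-27327162: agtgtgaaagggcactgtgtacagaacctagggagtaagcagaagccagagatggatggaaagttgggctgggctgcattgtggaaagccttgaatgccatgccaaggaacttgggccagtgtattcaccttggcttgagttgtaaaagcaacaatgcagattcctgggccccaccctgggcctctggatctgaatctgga
NTSR1 intron, chr20:61371618-61371818: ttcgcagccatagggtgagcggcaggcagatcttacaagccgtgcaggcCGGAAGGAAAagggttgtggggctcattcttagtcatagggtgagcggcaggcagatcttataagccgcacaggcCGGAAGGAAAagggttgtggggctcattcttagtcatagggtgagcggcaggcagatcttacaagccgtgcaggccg
LINC01503 region, chr9:132096426-132096626: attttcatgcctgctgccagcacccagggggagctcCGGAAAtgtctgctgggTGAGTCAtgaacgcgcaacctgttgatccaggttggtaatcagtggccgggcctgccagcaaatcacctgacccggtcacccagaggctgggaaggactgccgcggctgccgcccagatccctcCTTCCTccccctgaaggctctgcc
MPRIP region, chr17:16914423-16914623: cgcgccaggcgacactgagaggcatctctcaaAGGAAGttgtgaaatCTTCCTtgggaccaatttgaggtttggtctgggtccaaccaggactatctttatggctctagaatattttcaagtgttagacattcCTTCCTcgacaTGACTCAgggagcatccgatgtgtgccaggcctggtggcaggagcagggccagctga
THSD4 intron, chr15:71587570-71587770: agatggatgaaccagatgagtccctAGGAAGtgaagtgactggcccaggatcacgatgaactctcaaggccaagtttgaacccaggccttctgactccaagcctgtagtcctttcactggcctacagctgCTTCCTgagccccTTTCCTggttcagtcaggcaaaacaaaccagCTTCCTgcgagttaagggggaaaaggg
ELL2 region, chr5:95403781-95403981: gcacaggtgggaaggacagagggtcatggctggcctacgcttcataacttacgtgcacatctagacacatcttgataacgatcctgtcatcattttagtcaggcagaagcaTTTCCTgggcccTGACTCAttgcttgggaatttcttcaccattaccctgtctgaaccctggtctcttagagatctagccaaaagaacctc
PHACTR3 intron, chr20:58406175-58406375: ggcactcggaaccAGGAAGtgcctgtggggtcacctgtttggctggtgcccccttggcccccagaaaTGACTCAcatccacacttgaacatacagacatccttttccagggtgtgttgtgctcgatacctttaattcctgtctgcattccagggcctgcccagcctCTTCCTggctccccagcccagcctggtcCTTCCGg
TOX2 intron, chr20:42584189-42584389: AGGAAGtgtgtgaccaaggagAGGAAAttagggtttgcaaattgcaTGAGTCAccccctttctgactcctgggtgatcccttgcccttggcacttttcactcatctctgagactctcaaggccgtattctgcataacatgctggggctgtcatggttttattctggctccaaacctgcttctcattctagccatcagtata
S100A11 promoter, chr1:152020627-152020827: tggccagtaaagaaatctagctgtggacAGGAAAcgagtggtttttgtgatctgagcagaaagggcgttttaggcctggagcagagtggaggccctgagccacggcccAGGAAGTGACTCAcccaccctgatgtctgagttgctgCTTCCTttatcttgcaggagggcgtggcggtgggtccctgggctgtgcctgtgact

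In the S100A11 promoter the ETS core AGGAAG and the AP-1 letters TGACTCA directly adjoin, without a shared base, in the run AGGAAGTGACTCA near the summit. The NTSR1 window held 4 ETS cores and no AP-1 letters. These cores form 2 copies of the run CGGAAGGAAA, inside a longer stretch that repeats in the window. The IL4R window, at the peak with the highest enrichment, held neither the marked ETS cores nor the AP-1 letters. The shorter letters GGAA did occur in the IL4R window. The strongest regions thus did not all share the marked letters.

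The ERG peaks with ERK2 nearby were short and mostly of low enrichment. Fold enrichment is the ratio of the ChIP pileup to the input signal at the summit, and its median was 4.24 for ERG at the 480 regions and 3.53 at the other 8624 ERG peaks. The median pileup was 5 reads against 4, and 87 of the 480 regions (18.1%) had an ERG q-value of at most 0.01. The median ERK2 fold enrichment of the nearest ERK2 peak was 3.61, with a range of 2.26 to 60.9. Across the 480 regions, ERG and ERK2 fold enrichment had a Spearman rho of 0.10, and it was 0.11 without the 7 regions near small RNA genes. These points share 2 libraries, and steps of single reads set many of their values.

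Most of the pairs lay close together. The peaks overlapped at 265 of the 480 regions (55.2%), and the gap was 1 to 100 bp at 45 further regions and over 500 bp at 63. Where the peaks overlapped, the summits lay within 100 bp of each other at 136 of 265 regions, with a median of 96 bp. The widest gap inside the limit was 995 bp, at a region of GRHL2 with an ERG fold of 3.43, and the narrowest outside it was 1013 bp, at a region of PPP2R2D with an ERG fold of 4.24. The 480 regions used 435 of the 5720 ERK2 peaks, and 88 regions shared their ERK2 peak with another region. Seen from the other list, 9.32% of all ERK2 peaks and 21.3% of the 178 that passed a q-value of 0.01 had an ERG peak within 1000 bp.

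Among the regions with the highest ERG enrichment, the first lay in an intron of IL4R, the interleukin-4 receptor alpha chain, at chr16:27326904-27327303. Its ERG fold was 19.8 with a pileup of 27 reads, and the ERK2 peak that overlapped it had a fold of 3.98. The second, at chr20:61371305-61371998 in an intron of the neurotensin receptor gene NTSR1, had an ERG fold of 10.6 and an ERK2 fold of 4.36. LINC01503, GADD45G and BCL2L1 followed, with ERG folds of 8.81, 8.72 and 8.60. GADD45G is a stress-induced growth arrest gene, and BCL2L1 encodes the survival protein BCL-XL. All 5 regions were open in the 3 ATAC-seq lists that were used, and their ERK2 folds ranged only from 3.04 to 4.86.

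The regions with the highest ERK2 enrichment were of another kind. Of the first 5, 4 lay within 1000 bp of a gene of a small nuclear or nucleolar RNA, namely SNORD3A with an ERK2 fold of 60.9, RNU1-27P with 33.9, RNU1-3 with 24.9 and RNU2-59P with 10.4. Such genes have many near-identical copies, to which reads are hard to assign. Their ERG folds were only 3.32 to 4.94. Altogether 7 of the 480 regions (1.46%) lay within 1000 bp of a small RNA gene, against 0.522% of the other ERG peaks. Away from these genes the highest ERK2 folds were 8.74 in an intron of the autophagy receptor gene SQSTM1, 7.26 upstream of ELL2, a transcription elongation factor gene, 6.47 at a region 31635 bp from the locus of CASC11, on the side away from MYC, and 6.30 in an intron of TNFAIP8 and in an untranslated exon of SAPCD2. ELL2 was the only one of these 5 with an ERG q-value of at most 0.01.

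**Figure D1:**
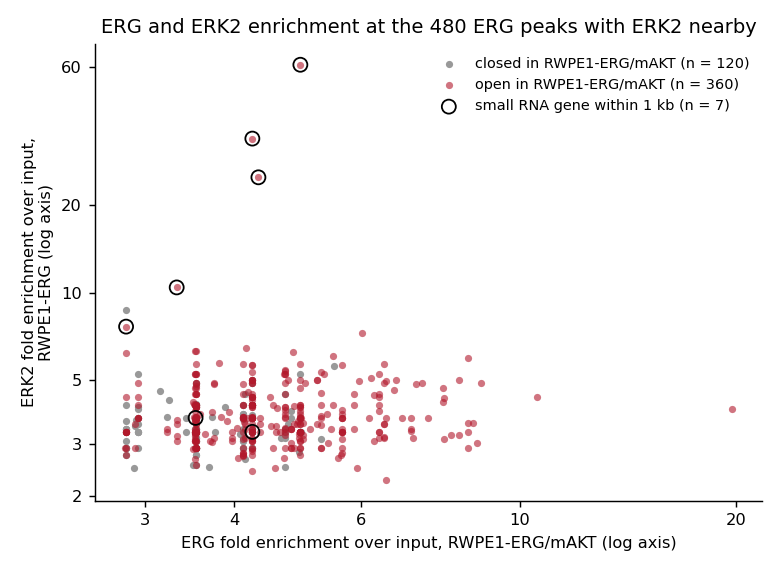
Each point is 1 of the 480 ERG peaks with ERK2 nearby, with its ERG fold enrichment in RWPE1-ERG/mAKT cells on the x axis and the fold enrichment of its nearest ERK2 peak in RWPE1-ERG cells on the y axis, both on log axes. Red points were open in RWPE1-ERG/mAKT ATAC-seq (360), grey points were closed (120), and circles mark the 7 regions with a small RNA gene within 1000 bp, which hold the 4 highest ERK2 folds.

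Both q-values were at most 0.01 at 10 regions. At chr17:16914126-16914931, upstream of the myosin phosphatase partner gene MPRIP, the ERG fold was 8.47 and the ERK2 fold 5.94. At chr15:71587409-71588057, in an intron of THSD4, the folds were 6.71 and 5.01, and at chr5:95403796-95403981, upstream of ELL2, they were 6.03 and 7.26. The other 7 lay near MIR3193 and ID1, 13151 bp from CASC11 on the side away from MYC, and near PCDH1, HIST1H4L, NBPF9, BNC1 and CAMK2G. PCDH1 is a protocadherin of airway and other epithelia, BNC1 a zinc finger protein of basal keratinocytes and ID1 an inhibitor of basic helix-loop-helix factors. Of the 10, 9 were open in each of the 3 ATAC-seq lists, and the region near NBPF9, a gene of a repeated family, was closed in all.

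Open chromatin was far more frequent at the 480 regions than at the other ERG peaks. A region was counted as open in a line where it overlapped an ATAC-seq peak of that line by at least 1 bp, and intervals of shares are 95% Wilson intervals, those of differences 95% Newcombe intervals. These cover counting error only and treat peaks as independent, which neighbouring peaks of 1 library are not. In RWPE1-ERG/mAKT cells 360 of 480 regions (75%, 70.9 to 78.7%) were open, against 1329 of the 8624 other ERG peaks (15.4%, 14.7 to 16.2%), a difference of 59.6 percentage points (55.5 to 63.3). In RWPE1-ERG cells 77.5% of the regions and 17.7% of the other peaks were open, and in RWPE1-mAKT cells, which carry no ERG transgene, 73.1% and 15.1%. The intervals of the 3 shares of the 480 regions overlap. Among the other peaks the share in RWPE1-ERG cells (16.9 to 18.5%) lay above that in RWPE1-mAKT cells (14.3 to 15.8%). The lists differ in length, with 62950 ATAC-seq peaks in RWPE1-ERG, 57616 in RWPE1-mAKT and 41731 in RWPE1-ERG/mAKT cells. Differences in share between lines were therefore not read as differences in open chromatin.

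Most regions were open in all 3 lines whose ATAC-seq lists were used, and RWPE1-vector ATAC-seq was not analysed here. Of the 480, 326 (67.9%) were open in all 3 lists and 88 (18.3%) in none, whereas 80.6% of the other ERG peaks were open in none. Only 22 regions (4.58%) were open in both lines with ERG and not in RWPE1-mAKT cells, and 8 were open in RWPE1-mAKT cells alone. The 22 included regions near LINC00494, IL1B, EFNA1, YES1, CLIP4 and RAB20, 1 of the 4 regions of EPHA2 and 1 of the 2 of ERRFI1. EFNA1 encodes a ligand of the receptor tyrosine kinase EPHA2, and ERRFI1 encodes an inhibitor of the EGF receptor. Among open ERG peaks this class, open in both lines with ERG and not in RWPE1-mAKT cells, was less frequent with ERK2 (6.11%) than without (10.5%). The difference was -4.35 percentage points (-7.04 to -1.01). Whether these peaks are open in RWPE1-vector cells was not examined.

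The share that was open was higher at stronger ERG peaks, by the number of reads at the summit, and it was higher with ERK2 nearby in each class. At a pileup of 3 or 4 reads it was 52.8% with ERK2 and 7.97% without, at 5 or 6 reads 76.1% and 19.1%, and at 7 or more reads 92.4% (86.8 to 95.7%) and 48.5% (44.7 to 52.4%). At a q-value of at most 0.01 for ERG, 85 of 87 regions with ERK2 (97.7%) were open, against 184 of 361 without (51.0%). It was lower with distance from ERK2: 84.9% of the regions that ERK2 overlapped, 49.2% of those over 500 bp away and 36.9% of the 312 ERG peaks over 1000 and up to 5000 bp away were open. At ERG peaks over 100 kb from an ERK2 peak it was 11.5%.

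Among open peaks, the ATAC-seq enrichment was no higher at the regions with ERK2. The median ATAC fold enrichment in RWPE1-ERG/mAKT cells was 6.02 at the 360 open regions and 6.19 at the 1329 open ERG peaks without ERK2, and in RWPE1-ERG cells it was 7.04 and 7.92. Counted over the RWPE1-ERG/mAKT list of ATAC-seq, 340 of the 1608 peaks that overlapped an ERG peak had ERK2 within 1000 bp (21.1%, 19.2 to 23.2%), against 2662 of the 40123 that overlapped none (6.63%, 6.39 to 6.88%). Taking all 9104 ERG peaks, ERK2 was nearby at 21.3% of the open ones and 1.62% of the closed ones.

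**Figure D2:**
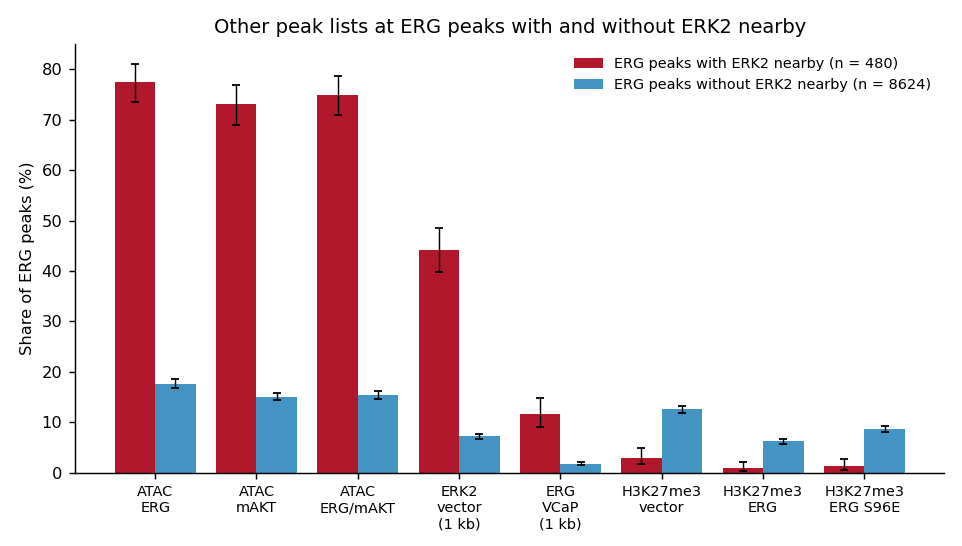
Bars give the share of ERG peaks, in percent on an axis from 0, that overlap an ATAC-seq peak or H3K27me3 region, or that lie within 1000 bp of an ERK2 peak of RWPE1-vector cells or an ERG peak of VCaP cells. Red bars are the 480 peaks with ERK2 nearby, blue bars the other 8624, and error bars are 95% Wilson intervals; red exceeds blue for ATAC-seq, vector ERK2 and VCaP ERG, and blue exceeds red for H3K27me3.

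ERK2 was also found at many of these regions in cells without the ERG transgene. An ERK2 peak of RWPE1-vector cells lay within 1000 bp of 212 of the 480 regions (44.2%, 39.8 to 48.6%) and of 7.20% of the other ERG peaks, a difference of 37 percentage points (32.5 to 41.5). Among open peaks the shares were 46.4% and 19.5%, a difference of 26.9 percentage points (21.4 to 32.4). The vector list holds 41265 peaks against 5720 in RWPE1-ERG cells, from 8393459 and 15020233 ChIP reads. With only the 5720 vector peaks of lowest p-value the shares were 19.4% of the 480 regions and 1.55% of the others, so the value depended on the length of the list. The 212 regions with vector ERK2 had a median GC content of 56.2%, and the 268 without it 50.2%. They were open in 78.8% (72.8 to 83.7%) and 72.0% (66.4 to 77.0%) of cases, and their intervals overlap.

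Some of the regions overlapped or lay near ERG peaks of VCaP, a prostate cancer line with an endogenous ERG fusion. Overlap was present at 34 of 480 regions (7.08%) and at 0.928% of the other ERG peaks. A VCaP ERG peak lay within 1000 bp of 56 of 480 regions (11.7%, 9.09 to 14.8%) and of 1.75% of the other ERG peaks. Among open peaks the shares were 12.8% and 5.87%, a difference of 6.91 percentage points (3.55 to 10.9). The VCaP peaks with the highest fold that overlapped a region, chosen after their values were seen, were at FRMD6, MPRIP, NEAT1, RAB20, LIMS3L and CBX3. The 56 regions were then set beside the other 424, without a test. They lay in promoters in 26.8% (17.0 to 39.6%) against 8.49% (6.20 to 11.5%) of cases, and they held the AP-1 letters in 5.36% (1.84 to 14.6%) against 20.0% (16.5 to 24.1%).

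H3K27me3, the mark that the PRC2 complex places on repressed chromatin, was less frequent at these regions than at the other ERG peaks by the lists as deposited. In RWPE1-vector cells 14 of 480 regions (2.92%, 1.75 to 4.84%) and 12.6% of the other ERG peaks lay in an H3K27me3 region. In RWPE1-ERG cells the shares were 0.833% and 6.20%, and in RWPE1-ERG S96E cells 1.25% and 8.67%. With only H3K27me3 regions of at least 2-fold enrichment the shares in RWPE1-vector cells were 1.88% and 3.51%, a difference of -1.64 percentage points (-2.61 to 0.0518) whose interval includes 0. In RWPE1-ERG and RWPE1-ERG S96E cells that limit left differences of -2.50 (-3.14 to -1.16) and -4.98 (-5.77 to -3.52) percentage points. The 3 lists differ in length and depth, so their shares were not compared with each other. Among open ERG peaks the mark was rare with and without ERK2, at 2.50% and 3.31% in RWPE1-vector cells, a difference of -0.811 percentage points (-2.43 to 1.53). The interval of that difference includes 0. Regions marked in RWPE1-vector cells were near NOTCH1, NUAK1, IGFL1, LINC00494 and PHACTR3, among others. The 4 regions marked in RWPE1-ERG cells, 2 near FCGR2A and 1 each near PPFIA4 and FRG2B, were closed in all 3 ATAC-seq lists.

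The 480 regions lay nearer to genes than other ERG peaks. Their median distance from summit to the nearest protein-coding gene start was 21724 bp, against 58972 bp for the other peaks and 37269 bp for open peaks without ERK2. By the summit, 51 regions (10.6%) lay within 1000 bp of such a start, 192 in introns, 208 between genes, 15 in untranslated exons and 14 in coding exons. Among open peaks the promoter share was 11.7% with ERK2 and 7.37% without, a difference of 4.29 percentage points (0.997 to 8.24). The median GC content of the windows around the summits was 51.7%, against 41.3% at the other peaks, and among open peaks it was 52.7% and 48.8%. GC content and nearness to genes moved together with the nearness to ERK2, and their part in the other differences was not tested.

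The promoters with the highest ERG fold, chosen after their values were seen, were those of S100A11, HIST1H4L and SLC16A3, each with a fold of 5.65. S100A11 encodes a calcium-binding protein of epithelia, HIST1H4L a replication-dependent histone H4 and SLC16A3 the lactate exporter MCT4. Other promoters belonged to DUSP6, the phosphatase that inactivates ERK, to CBX3 and HNRNPA2B1, which share a start region, to TPD52L2, GRB7, CST6 and KRT15, and to the ribosomal protein genes RPS12, RPL27 and RPL28. At the DUSP6 promoter, at chr12:89746456-89746666, the ERG fold was 4.24 and the ERK2 peak lay 600 bp away with a fold of 2.89. That region overlapped both an ERK2 peak of RWPE1-vector cells and an ERG peak of VCaP cells.

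**Figure D3:**
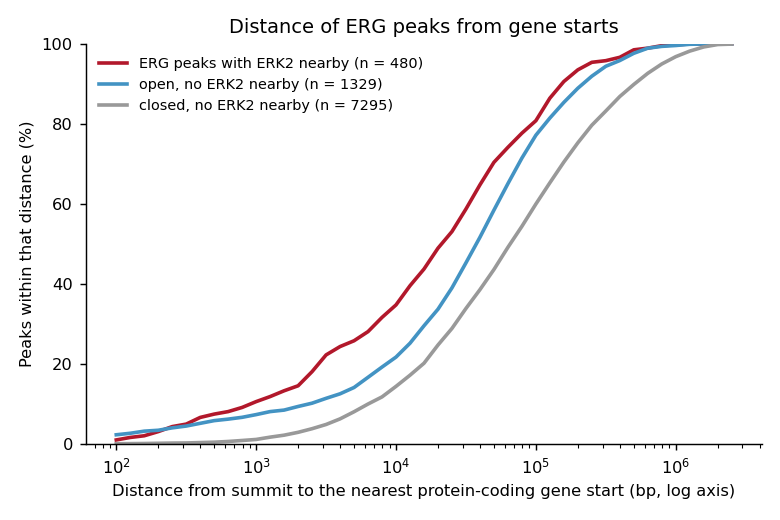
Curves give the share of ERG peaks, in percent, whose summit lies within the distance on the x axis (bp, log axis) of a protein-coding gene start. The curve of the 480 peaks with ERK2 nearby (red) lies above that of the 1329 open peaks without ERK2 (blue) between 1000 bp and 50 kb, and both lie above that of the 7295 closed peaks without ERK2 (grey).

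The regions were spread unevenly over the chromosomes. Chromosome 1 held 66 (13.8%), chromosome 20 held 41 (8.54%), chromosome 9 held 38 and chromosome 5 held 37. Of all ERG peaks on chromosome 20, 13.1% had ERK2 nearby, the highest share of any chromosome, while chromosomes 18 and X had 1 region each and chromosome 22 none of its 46 ERG peaks. The ERK2 peaks were uneven as well, with 357 on chromosome 20 (6.24% of all), 11 on chromosome 22 and 8 on chromosome X.

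The letters of ETS and AP-1 factors were more frequent at the 480 regions than at the other ERG peaks, while among open ERG peaks the intervals of the differences included 0 and among closed ones those of the ETS letters did not. The AP-1 letters TGACTCA or TGAGTCA, on either strand within 100 bp of the summit, were present in 88 of 480 windows (18.3%, 15.1 to 22.0%) and in 7.91% of the windows of other peaks, a difference of 10.4 percentage points (7.17 to 14.2). Among open peaks they were present in 22.8% with ERK2 and 25.3% without, a difference of -2.50 percentage points (-7.20 to 2.63). Among closed peaks they were present in 5% and 4.74%, a difference of 0.257 percentage points (-2.48 to 5.76). Equally wide flanking windows, centred 1000 bp from the 480 summits, held them in 3.96%.

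The ETS letters followed the same order. An ETS core was present in 358 of 480 windows (74.6%, 70.5 to 78.3%), in 50.2% of the windows of other ERG peaks, and in 41.0% of the flanking windows. Among open peaks the shares were 79.4% with ERK2 and 81.7% without, and among closed peaks 60% and 44.5%, a difference of 15.5 percentage points (6.49 to 23.9). Closed peaks are those closed in RWPE1-ERG/mAKT cells, and the closed sets were not alike. With and without ERK2, 20% and 3.87% were open in RWPE1-ERG cells, and 64.2% and 12.6% had an ATAC-seq peak of any list within 1000 bp. Their median GC content was 49.5% and 39.8%. The stricter 8-letter ETS sequence, AGGAAGTG or CGGAAGTG, was present in 10.0% of the 480 windows and 3.43% of the others, and among open peaks in 11.1% and 10.5%, a difference of 0.577 percentage points (-2.77 to 4.55). Among closed peaks it was present in 6.67% with ERK2 and 2.14% without, a difference of 4.53 percentage points (1.26 to 10.5). The letters GGAAGTGA, in which an ETS sequence runs into part of an AP-1 sequence and which overlap the 8-letter sequence, were present in 21 of 480 windows (4.38%, 2.88 to 6.60%) and in 2.22% of the others. Among open peaks they were present in 4.72% with ERK2 and 6.02% without, a difference of -1.30 percentage points (-3.55 to 1.65).

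The letters were more frequent at stronger ERG peaks. At open peaks with ERK2, an ETS core was present in 66.2% at a pileup of 3 or 4 reads, 79.0% at 5 or 6 reads and 86.5% (79.6 to 91.3%) at 7 or more. The AP-1 letters were present in 16.9%, 21.6% and 27.1%, with intervals that overlap. Open peaks without ERK2 had ETS cores in 77.1%, 80.3% and 90.1% and AP-1 letters in 20.7%, 26.6% and 27.9% of the same classes. At 68 of the 480 regions (14.2%) both an ETS core and the AP-1 letters were present, and at 102 (21.2%) neither was.

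Other letters, chosen after the data were seen, were compared in the same windows. TEAD letters (GGAATGT) were present in 7.92% of the 480 windows and 4.19% of the others, and a pair of GGAA in a row (GGAAGGAA) in 6.46% and 3.15%. Among open peaks the intervals of the differences between peaks with and without ERK2 included 0 for both. Forkhead letters (GTAAACA or ATAAACA) were less frequent, in 5.42% of the 480 windows and 10.6% of the others, a difference of -5.17 percentage points (-6.99 to -2.69). Among open peaks they were present in 5.56% with ERK2 and 7.82% without, a difference of -2.27 percentage points (-4.76 to 0.891). RUNX letters (TGTGGTT) were present in 5.42% and 4.73%, a difference of 0.686 percentage points (-1.07 to 3.12).

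**Figure D4:**
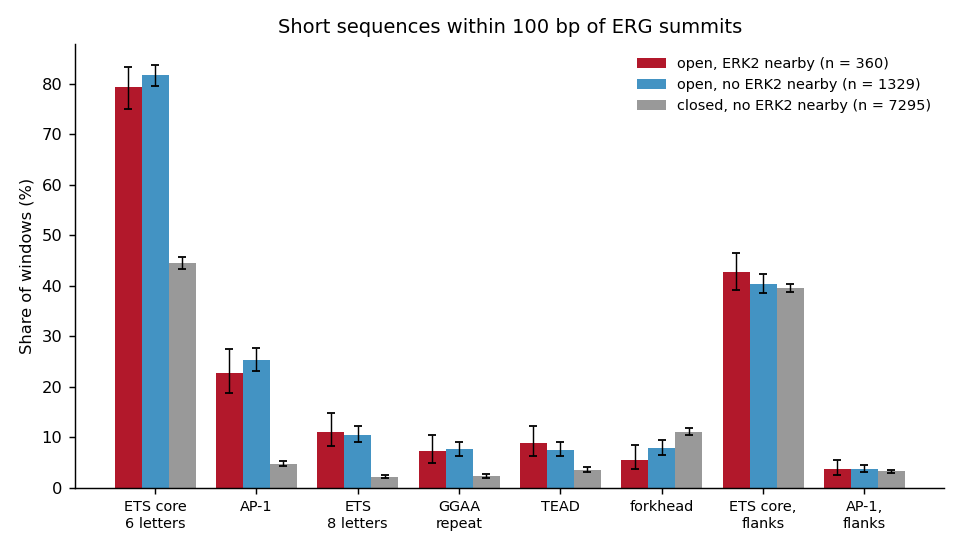
Bars give the share of windows, in percent on an axis from 0, that hold each set of letters on either strand within 100 bp of the ERG summit, or in equally wide windows centred 1000 bp away (flanks). Red bars are the 360 open peaks with ERK2 nearby, blue bars the 1329 open peaks without and grey bars the 7295 closed peaks without, with 95% Wilson intervals; red and blue differ little beside the gap to grey for ETS cores and AP-1.

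The nearest genes were taken by the locus column of the RNA-seq data, which give 1 FPKM value per gene and line, pooled over 3 libraries by the authors. FPKM is the number of fragments scaled to transcript length and to the fragments mapped per library. The values used here carry no error, since the levels are not given per library, and in cultured cells a lower level can come from fewer expressing cells or less RNA per cell, which cannot be told apart. The lines carried their ERG labels, since ERG was at 358 and 328 FPKM in RWPE1-ERG and RWPE1-ERG/mAKT cells and at 0.264 and 0.435 in RWPE1-vector and RWPE1-mAKT cells. AKT1 was at 58.7, 64.2, 156 and 281 FPKM in vector, ERG, mAKT and ERG/mAKT cells. Its level thus also differed between the lines with mAKT, which limits the ratio of ERG/mAKT over mAKT. The epithelial markers KRT5, KRT14, KRT8, KRT18, TP63, EPCAM and CDH1 were at 21.3 FPKM or more in every line, and the endothelial markers PECAM1, CDH5, VWF, TEK and KDR at 0.21 or less.

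The 480 regions had 393 nearest genes, or 1.52% of the 25828 genes of the table. These were expressed more often and more highly than genes near other ERG peaks. In at least 1 line, 298 of them (75.8%) reached an FPKM of 1, against 715 of the 1073 genes nearest to an open ERG peak without ERK2 (66.6%), 52.3% of the genes nearest to any ERG peak without ERK2, and 48.5% of all genes. The median FPKM of those 298 genes in RWPE1-vector cells was 18.6, against 10.5 for the 715. At 136 regions several genes were equally near in the locus column, and a protein-coding gene was then preferred.

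The nearest genes as a group had small median ratios. Their intervals over genes left out the median of all genes in both comparisons that involve RWPE1-ERG cells. Ratios were taken as log2 of FPKM plus 1, for genes that reached 1 FPKM in either line, and the interval of a median is a 95% interval from order statistics over genes. It treats genes as independent and holds no error between libraries, so it does not test a difference between lines. In RWPE1-ERG over RWPE1-vector cells the median of 291 nearest genes was 0.08 (0.03 to 0.13), against -0.01 over all 12236 genes. For genes near open ERG peaks without ERK2 the median was 0.03 (-0.01 to 0.06), an interval that overlaps that of the nearest genes. In RWPE1-ERG/mAKT over RWPE1-ERG cells the median of 296 nearest genes was -0.18 (-0.23 to -0.14), against -0.05 over all 12303 genes and -0.10 (-0.13 to -0.07) for genes near open ERG peaks without ERK2. In RWPE1-mAKT over RWPE1-vector cells it was 0.02 (-0.00 to 0.04), against 0.02 over all genes, and in RWPE1-ERG/mAKT over RWPE1-mAKT cells -0.08 (-0.13 to -0.05), against -0.07. The comparisons share lines, so their values are not independent.

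Few of the nearest genes passed a ratio of 2-fold, and their shares were close to those of all genes in most comparisons. In RWPE1-ERG over RWPE1-vector cells 12 of 291 (4.12%) were higher and 2 lower, where 3.62% and 0.989% of all genes were. In RWPE1-mAKT over RWPE1-vector cells 1 of 287 was higher and 1 lower, where 1.16% and 0.841% of all genes were. In RWPE1-ERG/mAKT over RWPE1-mAKT cells 2 of 290 were higher and 5 lower, where 2.08% and 0.876% of all genes were. In RWPE1-ERG/mAKT over RWPE1-ERG cells 6 of 296 were higher, where 2.06% of all genes were. There 16 were lower (5.41%, 3.35 to 8.60%), where 2.51% of all genes and 3.13% (2.08 to 4.70%) of the genes near open ERG peaks without ERK2 were.

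The nearest genes with the largest ratios included secreted proteins and keratins. IGFL1, a secreted insulin-like growth factor family member, was at 1.97 FPKM in vector, 44.5 in ERG, 4.27 in mAKT and 50.4 in ERG/mAKT cells. It was thus high in both lines with ERG, with a log2 ratio of 3.93 for ERG over vector and 3.28 for ERG/mAKT over mAKT, and its region at chr19:46729793-46730197 lay 3000 bp from its start, touched 3 loci of the table and was in an H3K27me3 region of RWPE1-vector cells. CST6, the cysteine protease inhibitor cystatin M, was at 9.51, 74.3, 7.27 and 18.5 FPKM in the same order of lines. Its promoter region at chr11:65780379-65780487, which the ERK2 peak overlapped, was closed in all 3 ATAC-seq lists.

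Several genes were highest in the line with ERG alone, in which ERK2 was mapped. IL1B, the cytokine interleukin-1 beta, was at 46.6 FPKM in vector, 168 in ERG, 42.0 in mAKT and 44.6 in ERG/mAKT cells. CCND2, which encodes cyclin D2, was at 26.3, 99.3, 32.0 and 36.1 FPKM. SPARC, a matrix glycoprotein gene, was at 31.6, 67.5, 12.2 and 15.4 FPKM, the lowest ratio of the nearest genes in both mAKT over vector (log2 -1.31) and ERG/mAKT over ERG (log2 -2.07). The regions were far from these genes, at 17602 bp from the locus of IL1B, 131742 bp from that of CCND2 and 40428 bp from that of SPARC. The SPARC region was closed in the 3 ATAC-seq lists, that of IL1B was open in both lines with ERG and that of CCND2 in all 3 lines. Keratin genes differed in direction. KRT5, a keratin of basal cells, was at 3126, 1170, 3642 and 3519 FPKM, lowest with ERG alone, and TRIM29 followed it at 122, 56.8, 140 and 159 FPKM. KRT7 was at 2463, 4356, 2082 and 2124 FPKM and KRT19, a luminal keratin, at 367, 956, 405 and 654 FPKM, both highest with ERG alone. The 3 regions nearest to KRT19 by locus lay in an intron or the promoter of KRT15, which was at 33.3, 80.3, 53.8 and 280 FPKM.

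Other genes were lowest in the line with ERG and mAKT. MT2A, a metallothionein, was at 13332, 19639, 15674 and 6088 FPKM in vector, ERG, mAKT and ERG/mAKT cells. The potassium channel gene KCNMA1 was at 39.9, 29.7, 46.4 and 18.4 FPKM, and the membrane protein gene DCBLD2 at 57.0, 51.1, 45.6 and 18.9 FPKM. DUSP6 was at 86.2, 59.6, 74.8 and 32.5 FPKM, a log2 ratio of -1.18 for ERG/mAKT over mAKT. Ratios of mAKT over vector were small. Past 2-fold were SPARC and LY6D, a gene at 0.470 FPKM in vector and 3.44 in mAKT cells. Among genes that reached 5 FPKM in the higher line, the next were LINC01604 (log2 -0.56) and NT5E (-0.54) among the lower genes, and TSPAN1 (0.89), PSCA (0.86) and TNFAIP2 (0.80) among the higher. For ERG over vector, ID1 followed KRT5 and TRIM29 among the lower genes (log2 -0.87), and for ERG/mAKT over mAKT, PCDH1 followed IGFL1 and CST6, at 34.4 FPKM in mAKT and 67.4 in ERG/mAKT cells.

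**Figure D5:**
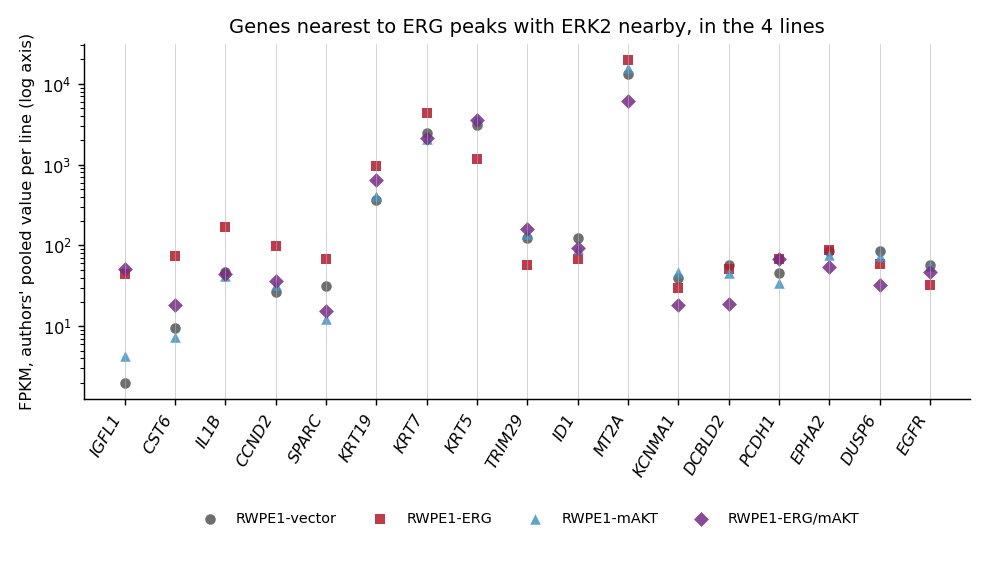
Points give the authors' pooled FPKM (log axis, no error shown) of 17 genes nearest to ERG peaks with ERK2 nearby, in RWPE1-vector (circles), RWPE1-ERG (squares), RWPE1-mAKT (triangles) and RWPE1-ERG/mAKT cells (diamonds). IGFL1 is high in both lines with ERG, IL1B, CCND2 and SPARC are highest in the ERG line, and MT2A, KCNMA1, DCBLD2 and DUSP6 are lowest in the ERG/mAKT line.

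Genes of the ERK pathway and of epithelial identity were looked up in 11 lists. Of all genes measured, 1.52% were nearest to one of the 480 regions and 22.5% to any ERG peak. Among genes that reached 1 FPKM in at least 1 line, 2.38% were nearest to one of the 480 regions. Of 22 genes in a list of ERK feedback and immediate early genes, 3 were nearest to a region (EPHA2, DUSP6 and PHLDA1), and 13 to any ERG peak. EPHA2, with 4 regions, was at 85, 86.9, 75.7 and 54.7 FPKM in vector, ERG, mAKT and ERG/mAKT cells. Of 11 genes of the EGF receptor family and its ligands 2 were (EGFR and ERRFI1), and EGFR was at 57.1, 32.4, 55.4 and 46.4 FPKM. Of 16 TGF-beta and SMAD genes 5 were, among them ID1, TGFBR2, SMAD3 and TGFB2, and of 12 luminal genes 3 were (KRT7, KRT19 and CDH1). Of 18 basal genes 1 was (KRT5), of 13 AP-1 subunits and partners 1 (MAFK), of 20 migration and protease genes 2 with MMP14, of 19 integrin, laminin and matrix genes 2 (ITGA3 and SPARC) and of 15 endothelial genes 2 with EGFL7. None of 20 ETS factors and none of 11 PRC2 subunits and H3K27 demethylases was. KRT19 was counted here by the locus column, although its 3 regions lay in an intron or the promoter of KRT15. Over all lists, KRT19 and SPARC passed 2-fold upward for ERG over vector and KRT5 downward, SPARC downward for mAKT over vector, DUSP6 downward for ERG/mAKT over mAKT, and KRT5 upward and KRT7 and SPARC downward for ERG/mAKT over ERG.

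There were 13 genes with 3 or more regions, and EPHA2, LAMA5, SERINC2, SHB and VAV2 had 4 each. LAMA5 encodes a laminin chain of epithelial basement membranes, and SHB and VAV2 encode signalling adaptors below receptor tyrosine kinases. The 4 regions of EPHA2 had ERG folds of 5.65, 3.53, 7.05 and 3.52, and 3 of them lay in its introns at chr1:16470498-16472472. The strongest of VAV2, at chr9:136739280-136739510, had an ERG fold of 7.81 and an ERK2 fold of 4.69. None of these 5 genes passed 2-fold in any of the 4 comparisons, with LAMA5 at 57.0, 62.7, 63.2 and 63.3 FPKM and VAV2 at 44.8, 49.7, 39.9 and 40.5 FPKM. Regions that share a gene can share an ERK2 peak, so they are not separate observations of it.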

How the data were processed

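The authors pooled DNA of 3 ChIP experiments per library, aligned reads to hg19 and called peaks with MACS2. Per the file headers the deposited peak lists give fold enrichment, which is a ratio to the input signal, the pileup signal at the summit, and −log10 p-values and q-values. The ERG list was called at a p-value of 0.001 and the ERK2 lists at 0.01. ChIP reads numbered 10306483 for ERG and 15020233 for ERK2 in RWPE1-ERG cells. The depth of most ATAC-seq libraries is not given in the sources used here. The authors pooled FPKM over libraries per line with Cuffdiff; the deposited fold changes and p-values of their own comparisons were not used.

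Edge-to-edge gaps, overlaps, windows of 100 bases either side of the summit of GRCh37 and nearest loci were computed with python 3.11.15, pandas 2.3.3 and scipy 1.17.1, and the steps were tested on simulated data. Places and gene starts came from the GENCODE annotation of GRCh37. FPKM ratios used a pseudocount of 1 and an FPKM of at least 1 in either line, and had no test here, since levels per library were not used and the p-values of the authors were set aside. Peaks on chromosome Y were left out, and so were 2 deposited lists, 1 of ATAC-seq, that are attached to samples whose labels do not describe them.

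Named peaks were the 5 of highest ERG fold, the 5 of highest ERK2 fold and those passing both q-values. Named genes were, in each comparison, the 3 highest and 3 lowest ratios among genes that reached 5 FPKM, and expressed members of the gene lists, up to 4 a list. The members and lists were chosen with earlier results of these data known. The ETS core, GGAAGGAA, TEAD, RUNX and forkhead letters, and the peaks named for VCaP, promoters, small RNA genes and H3K27me3, were chosen after the data were seen. Alternatives changed the distance, peak thresholds, overlap, window, FPKM filter and pseudocount.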

Additional observations from a re-analysis of the deposited data

How the results depend on the processing

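Of 136 alternative values, 102 stayed within the spread set for them and 34 moved. One alternative left out peaks in tandem repeats, but none of the 480 regions was such a peak. Its values equalled the main ones and could not move, and they are counted among the 102. The number of regions was 265 with overlap only, 792 within 5 kb, 46 with an ERK2 q-value of at most 0.01 and 87 with an ERG q-value of at most 0.01. The share open in the ERG, mAKT and ERG/mAKT lines was 85.7%, 81.5% and 84.9% with overlap only, 63.0%, 58.6% and 59.97% within 5 kb, and 96.6%, 90.8% and 97.7% at the ERG q-value. It was 72.7%, 68.3% and 69.6% where 50% of the ERG peak had to be covered. With only the top 33000 ATAC-seq peaks of each list it was 67.3%, 65.0% and 72.5%, the last within its spread. The ERG/mAKT line was then highest, while the ERG line was highest with the whole lists, so the order of the lines depended on list length. The share near vector ERK2 was 34.5% within 5 kb and 19.4% with as many top vector peaks as RWPE1-ERG peaks. At the ERG q-value, 5.75% lay in H3K27me3 of RWPE1-vector cells and 0% in that of RWPE1-ERG cells. The AP-1, 8-letter ETS and GGAAGTGA shares were 12.3%, 4.79% and 2.50% within 50 bp of the summit and 28.7%, 16.1% and 6.90% at the ERG q-value. AP-1 was at 22.8% in open regions, and the 6-letter ETS core, an alternative chosen after seeing the data, was at 74.6%. Without the FPKM filter the median log2 ratios were 0.02 for ERG over vector, -0.04 for ERG/mAKT over mAKT and -0.08 for ERG/mAKT over ERG, and at the ERG q-value the last was -0.25. The cause was not tested.

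No paired analysis was possible because the FPKM values were pooled per line by the authors and each peak list came from 1 library. Most ERG and ERK2 peaks rested on few reads and missed a q-value of 0.01, and the FPKM ratios were computed without a replicate error.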
